A study of Mus musculus with 15 samples.

Results

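The 10 core genes of the circadian clock Arntl, Clock, Npas2, Per1, Per2, Per3, Nr1d1, Nr1d2, Dbp and Tef were followed in jejunal epithelial cells of mice sensitized to peanut and challenged with it. They were taken by name, and all 10 were among the 14968 genes that passed a filter on low counts, out of 52844 genes in all. Bulk RNA sequencing had been done on 15 mice of CC027/GeniUnc, a Collaborative Cross strain, in 5 groups of 3. Mice sensitized to peanut received 2 mg of peanut extract by gavage in each of 3 weeks and 5 mg in week 4. Of these, 3 mice were not challenged, and 9 were given 12 mg more by gavage as a challenge and were killed 30, 60 or 120 min later. A group of 3 PBS mice received PBS in place of peanut and was not challenged. The epithelium was shaken off 4 cm of jejunum after 75 min in EDTA and DTT at room temperature. The clock hour of collection is not given in the labels used here, and challenged mice given no peanut before were not analysed here.

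The mammalian clock is a loop of transcription factors that runs in nearly every cell. BMAL1, the product of Arntl, pairs with CLOCK or its relative NPAS2 and activates genes through E-boxes. Among these targets are the Per and Cry genes, whose proteins repress BMAL1 and CLOCK in turn, the nuclear receptors Nr1d1 and Nr1d2 (REV-ERB alpha and beta), and the output factors Dbp and Tef, which activate genes through D-boxes. REV-ERB proteins repress Arntl and Npas2 through ROR elements. In mouse tissues sampled around the clock, Arntl and Npas2 RNA peak at about the time when Dbp and Nr1d1 RNA are low, and the gut epithelium carries such a clock, which feeding can shift.

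Such elements were looked for in the promoters of the 10 genes, where RefSeq promoter windows (250 bases before to 50 after a transcript start, GRCm38.p6) were searched on both strands. The table held 14 windows for 9 of the 10 genes, all but Per2. An E-box (CACGTG) was found in 3 of the 14 windows, 1 of Per1 and 2 of Tef, against 7.15% of all 32851 promoters. A D-box (TTATGTAA or TTACGTAA) was found in 1 window, that of Per3, against 1.06% of all promoters. A ROR element (AGGTCA preceded by AANT or ATNT) was found in 1 window, of Arntl, against 0.371% of all promoters. No 2 matches overlapped. The windows with a match follow 5′ to 3′ in the direction of the gene, with the matched letters in capitals.
Arntl: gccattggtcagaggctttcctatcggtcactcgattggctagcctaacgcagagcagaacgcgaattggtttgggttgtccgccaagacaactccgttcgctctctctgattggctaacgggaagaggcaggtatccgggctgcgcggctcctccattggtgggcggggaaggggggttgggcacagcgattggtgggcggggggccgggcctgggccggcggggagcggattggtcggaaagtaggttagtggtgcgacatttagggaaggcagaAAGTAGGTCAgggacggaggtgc
Per1: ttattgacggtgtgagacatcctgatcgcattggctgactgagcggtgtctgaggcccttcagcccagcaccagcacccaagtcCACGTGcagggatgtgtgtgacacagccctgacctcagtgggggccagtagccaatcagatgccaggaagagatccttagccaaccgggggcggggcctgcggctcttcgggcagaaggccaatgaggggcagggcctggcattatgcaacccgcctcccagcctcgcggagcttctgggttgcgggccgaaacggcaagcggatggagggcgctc
Per3: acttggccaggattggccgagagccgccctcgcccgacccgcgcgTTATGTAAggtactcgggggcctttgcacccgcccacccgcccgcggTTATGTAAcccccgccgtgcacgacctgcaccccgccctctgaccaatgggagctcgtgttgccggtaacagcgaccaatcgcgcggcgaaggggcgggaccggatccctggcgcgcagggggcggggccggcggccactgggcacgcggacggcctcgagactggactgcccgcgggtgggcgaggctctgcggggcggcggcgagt
Tef, upstream start: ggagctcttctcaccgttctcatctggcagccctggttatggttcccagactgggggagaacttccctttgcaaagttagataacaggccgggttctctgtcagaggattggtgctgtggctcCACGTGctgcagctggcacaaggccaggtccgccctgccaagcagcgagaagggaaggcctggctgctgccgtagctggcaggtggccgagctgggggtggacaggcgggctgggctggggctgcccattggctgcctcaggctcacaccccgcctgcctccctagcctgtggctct
Tef, downstream start: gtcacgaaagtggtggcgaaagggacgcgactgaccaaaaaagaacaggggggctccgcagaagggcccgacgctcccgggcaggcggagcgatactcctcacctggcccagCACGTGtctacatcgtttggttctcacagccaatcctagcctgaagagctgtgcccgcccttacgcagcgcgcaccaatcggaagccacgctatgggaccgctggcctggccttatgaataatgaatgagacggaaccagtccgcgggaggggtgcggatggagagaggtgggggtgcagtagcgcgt
The Arntl window is chr7:113207261-113207560 on the plus strand, and its ROR element, AAGTAGGTCA, begins at base +28 from the start site. The Per1 window is chr11:69098699-69098998 on the plus strand, with its E-box at base -166. The Per3 window is chr4:151044616-151044915 on the minus strand and holds TTATGTAA at bases -205 and -158. The Tef windows are chr15:81802423-81802722 and chr15:81811164-81811463, both on the plus strand, with an E-box at bases -127 and -138 of their own start sites. The remaining windows, of Clock, Npas2, Nr1d1, Nr1d2 and Dbp, a second window of Arntl and a second of Per1, held none of these letters. A match describes the letters only, and no binding was measured.

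Libraries held 15661513 to 22691349 estimated counts, of which genes of the mitochondrial genome took 13.8% to 33.2%. The epithelial label fitted the markers, since 12 of 12 epithelial markers were tested and summed to 11100 to 15600 CPM. CPM here means counts scaled to a common effective total, which is the library total times edgeR's TMM normalization factor. These factors ran from 0.772 to 1.159, so the order of libraries in CPM depends on them. Leukocyte markers, 20 of 20 tested, summed to 50.4 to 376 CPM, and stromal and vessel markers, 8 of 14 tested, to 8.46 to 194 CPM, with the highest value in a 30 min library. No pair of libraries was identical. Labels name no litter or cage, so each library was taken as 1 mouse. In such bulk isolates, fewer cells of a type and less RNA per cell cannot be told apart.

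Per length, the clock genes spanned a wide range of levels in this epithelium. Over the 15 libraries Nr1d1 was the highest, at 118 ± 32.4 TPM (transcript abundance per length, scaled to a common total, mean ± SD, n = 15), and it stood above Per1 in 15 of 15 libraries. Per1 averaged 35.8 ± 11.8 TPM and Nr1d2 29.6 ± 9.95 TPM, with Per1 above Nr1d2 in 12 libraries. Dbp at 16.5 ± 8.43 TPM and Tef at 15.9 ± 6.38 TPM did not separate, since Dbp was the higher in 6 of 15 libraries. Clock had 11.2 ± 1.91 TPM, below Tef in 12 libraries and above Per2 in 15. Per2 (5.54 ± 3.02 TPM) and Arntl (4.81 ± 1.81 TPM) did not separate either, with Per2 higher in 7 libraries. Npas2 followed at 4.16 ± 1.35 TPM, and Per3 was the lowest at 1.36 ± 0.70 TPM. Their median estimated counts per library ran from 139 for Per3 to 7543 for Nr1d1, so the low genes carry more counting error.

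Among the activators, Arntl (chr7:113207465-113314126, plus strand, mm10) varied more between mice of a group than between groups. Arntl measured 10.9, 16.8 and 20.1 CPM in the sensitized unchallenged mice, 16.5, 5.62 and 19.6 CPM at 30 min, 20.7, 15.7 and 15.6 CPM at 60 min and 9.65, 17.1 and 15.5 CPM at 120 min after challenge. The PBS mice had 19.9, 5.73 and 19.4 CPM. The lowest libraries were 30 min replicate 2 and PBS replicate 2, which lay 3.48-fold and 3.47-fold below the highest mouse of their groups, and every group's range overlapped the others. The log2 difference was -0.17 ± 0.48 (SE) at 120 min against sensitized mice, with a 95% interval of -1.21 to 0.87 and an adjusted p of 0.897 in edgeR. Npas2 (chr1:39193731-39363236, plus strand), the partner of BMAL1 that can replace CLOCK, was low at 120 min in 2 of 3 mice. Npas2 measured 8.71, 12.3 and 16.0 CPM in the sensitized unchallenged mice, 12.0, 7.64 and 13.2 CPM at 30 min, 15.0, 12.6 and 19.4 CPM at 60 min and 4.90, 13.1 and 5.54 CPM at 120 min after challenge. In PBS mice the level was 11.6, 10.04 and 17.4 CPM. Replicates 1 and 3 at 120 min were the lowest of the 15 libraries and replicate 2 lay among the others. Npas2 at 120 min differed from 60 min by -1.001 ± 0.36 on the log2 scale (adjusted p = 0.156 in edgeR), and without 120 min replicate 2 the difference was -1.61 ± 0.32 with an adjusted p of 0.0306. Without 120 min replicate 1 or 3 the difference was -0.78 or -0.82 (adjusted p = 0.398 or 0.35 in edgeR). Without 60 min replicate 1, 2 or 3 it was -1.06, -1.16 or -0.84 (adjusted p = 0.127, 0.204 or 0.435).

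Clock (chr5:76209868-76304792, minus strand), whose protein is the DNA-binding partner of BMAL1, had the smallest spread within groups of the 10 genes. Clock measured 70.2, 81.2 and 77.0 CPM in the sensitized unchallenged mice, 67.9, 85.3 and 79.4 CPM at 30 min, 79.9, 97.3 and 124 CPM at 60 min and 77.7, 87.2 and 81.3 CPM at 120 min after challenge. Levels in PBS mice were 79.6, 68.5 and 74.4 CPM. In CPM its 15 libraries lay within a 1.82-fold range, and 60 min replicates 2 and 3 were the highest. In TPM 60 min replicate 3 had 10.3, below every 120 min mouse (12.7 to 13.7). Mean TPM of Clock was 10.3 ± 2.18 in sensitized mice, 12.4 ± 1.92 at 60 min and 13.1 ± 0.54 at 120 min (SD), so the highest group depended on the scaling. At 60 min Clock was 0.40 ± 0.14 (log2) from the sensitized mice, with an adjusted p of 0.302 in edgeR, and 0.37 ± 0.14 from the 30 min mice (adjusted p = 0.863). The library with the highest Clock CPM, 60 min replicate 3, also had the highest mitochondrial share (33.2%), whose part in the difference was not tested. Without it the difference from sensitized mice was 0.23 with an adjusted p of 0.67, and without 60 min replicate 1 it was 0.56 ± 0.13 with an adjusted p of 0.0454.

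The 3 Period genes, which encode repressors of BMAL1 and CLOCK, differed in how far they swung. Per1 measured 167, 128 and 102 CPM in the sensitized unchallenged mice, 134, 226 and 169 CPM at 30 min, 159, 189 and 153 CPM at 60 min and 168, 195 and 151 CPM at 120 min after challenge. For PBS mice the values were 82.4, 166 and 123 CPM. Per1 (chr11:69095217-69109960, plus strand), which glucocorticoid hormone can also induce, had means of 176 ± 46.4, 167 ± 19.0 and 171 ± 22.3 CPM at 30, 60 and 120 min, against 133 ± 32.7 CPM in sensitized mice and, in PBS mice, 124 ± 41.9 CPM (SD, n = 3 each). The differences from sensitized mice were 0.41 ± 0.24, 0.33 ± 0.24 and 0.37 ± 0.24 on the log2 scale at 30, 60 and 120 min, with adjusted p of 0.981, 0.596 and 0.458 in edgeR, and the ranges overlapped each time.

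Per2 measured 52.6, 35.4 and 23.7 CPM in the sensitized unchallenged mice, 21.0, 61.5 and 26.2 CPM at 30 min, 27.5, 38.7 and 17.0 CPM at 60 min and 73.2, 42.0 and 48.2 CPM at 120 min after challenge. The 3 PBS mice measured 18.7, 64.0 and 23.0 CPM. Per2 (chr1:91415982-91459324, minus strand) was highest in 120 min replicate 1, PBS replicate 2, 30 min replicate 2 and sensitized replicate 1, so high mice came from 4 of the 5 groups. The 120 min mice all lay above the 60 min mice, as was so in either direction for 20% of all genes, and the log2 difference of 0.97 ± 0.55 had an adjusted p of 0.354 in edgeR. Per3 measured 12.7, 6.03 and 4.45 CPM in the sensitized unchallenged mice, 5.58, 17.2 and 5.89 CPM at 30 min, 5.92, 10.6 and 4.06 CPM at 60 min and 14.1, 10.2 and 6.89 CPM at 120 min after challenge. PBS mice had 4.29, 9.64 and 4.80 CPM. Per3 (chr4:151003652-151044665, minus strand) was highest in 30 min replicate 2 and 120 min replicate 1, and the groups overlapped throughout. Its difference at 120 min from sensitized mice was 0.42 ± 0.54 (95% interval -0.73 to 1.57).

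The REV-ERB genes, whose proteins repress Arntl through ROR elements, were both well expressed. Nr1d1 measured 425, 469 and 418 CPM in the sensitized unchallenged mice, 311, 334 and 402 CPM at 30 min, 415, 414 and 245 CPM at 60 min and 337, 502 and 295 CPM at 120 min after challenge. In the PBS group it measured 341, 362 and 389 CPM. In CPM, Nr1d1 (chr11:98767932-98775333, minus strand) was higher in all 3 sensitized mice than in any PBS mouse. It was lower in all 30 min and all 60 min mice than in any sensitized mouse, while the 120 min range spanned both. In TPM the sensitized mice (97.7 to 157) overlapped the PBS mice (88.6 to 138), the 30 min mice (99.1 to 119) and the 60 min mice (41.8 to 158). The same sensitized mice enter each of these comparisons. At 60 min replicates 1 and 2 (415 and 414 CPM) lay just below the lowest sensitized mouse (418 CPM). Replicate 3 (245 CPM) had the highest mitochondrial share (33.2%), whose part in the Nr1d1 difference was not tested. The log2 differences were 0.26 ± 0.21 for sensitized against PBS mice, -0.32 ± 0.21 at 30 min and -0.29 ± 0.21 at 60 min against sensitized mice, with adjusted p of 1, 0.981 and 0.588 in edgeR. Groups failed to overlap for 7.98%, 14.3% and 18.5% of all genes tested in these comparisons, and Nr1d1 was 1 of the 10 clock genes to do so each time. Nr1d2 measured 105, 77.7 and 62.4 CPM in the sensitized unchallenged mice, 73.7, 92.9 and 77.4 CPM at 30 min, 89.4, 104 and 61.5 CPM at 60 min and 117, 116 and 75.4 CPM at 120 min after challenge. The PBS group had 63.3, 86.4 and 71.6 CPM. Nr1d2 (chr14:18204054-18239127, minus strand) was highest in 120 min replicates 1 and 2, and its slope over minutes was 0.17 ± 0.10 per 60 min on the log2 scale (adjusted p = 0.41 in edgeR).

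Dbp and Tef, the output factors that act through D-boxes, differed widely between mice of one group. Dbp measured 69.7, 33.7 and 22.5 CPM in the sensitized unchallenged mice, 28.5, 49.7 and 22.2 CPM at 30 min, 21.7, 41.8 and 16.4 CPM at 60 min and 53.0, 47.2 and 23.2 CPM at 120 min after challenge. PBS mice measured 16.5, 59.3 and 19.9 CPM. Within the PBS group Dbp (chr7:45705088-45710203, plus strand) spanned 3.60-fold and within the sensitized group 3.10-fold. The mean at 120 min, 41.1 ± 15.8 CPM, was close to that of sensitized mice, 41.9 ± 24.6 CPM (SD, n = 3 each), and the log2 difference of -0.03 ± 0.59 had a 95% interval of -1.33 to 1.27, so changes of more than 2-fold either way fall inside it. Tef measured 81.9, 43.1 and 42.9 CPM in the sensitized unchallenged mice, 41.4, 86.1 and 47.2 CPM at 30 min, 39.2, 81.6 and 40.3 CPM at 60 min and 97.3, 69.2 and 61.4 CPM at 120 min after challenge. Values of 33.9, 76.4 and 35.8 CPM were found in PBS mice. The Tef (chr15:81802421-81826863, plus strand) level of the highest mouse was 1.91-fold that of the lowest in the sensitized group, 2.08-fold at 30 and at 60 min and 2.25-fold in the PBS group, with 1 mouse standing above the other 2 each time. At 120 min the ratio was 1.58-fold, and the lowest of these mice had 61.4 CPM.

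**Figure D1:**
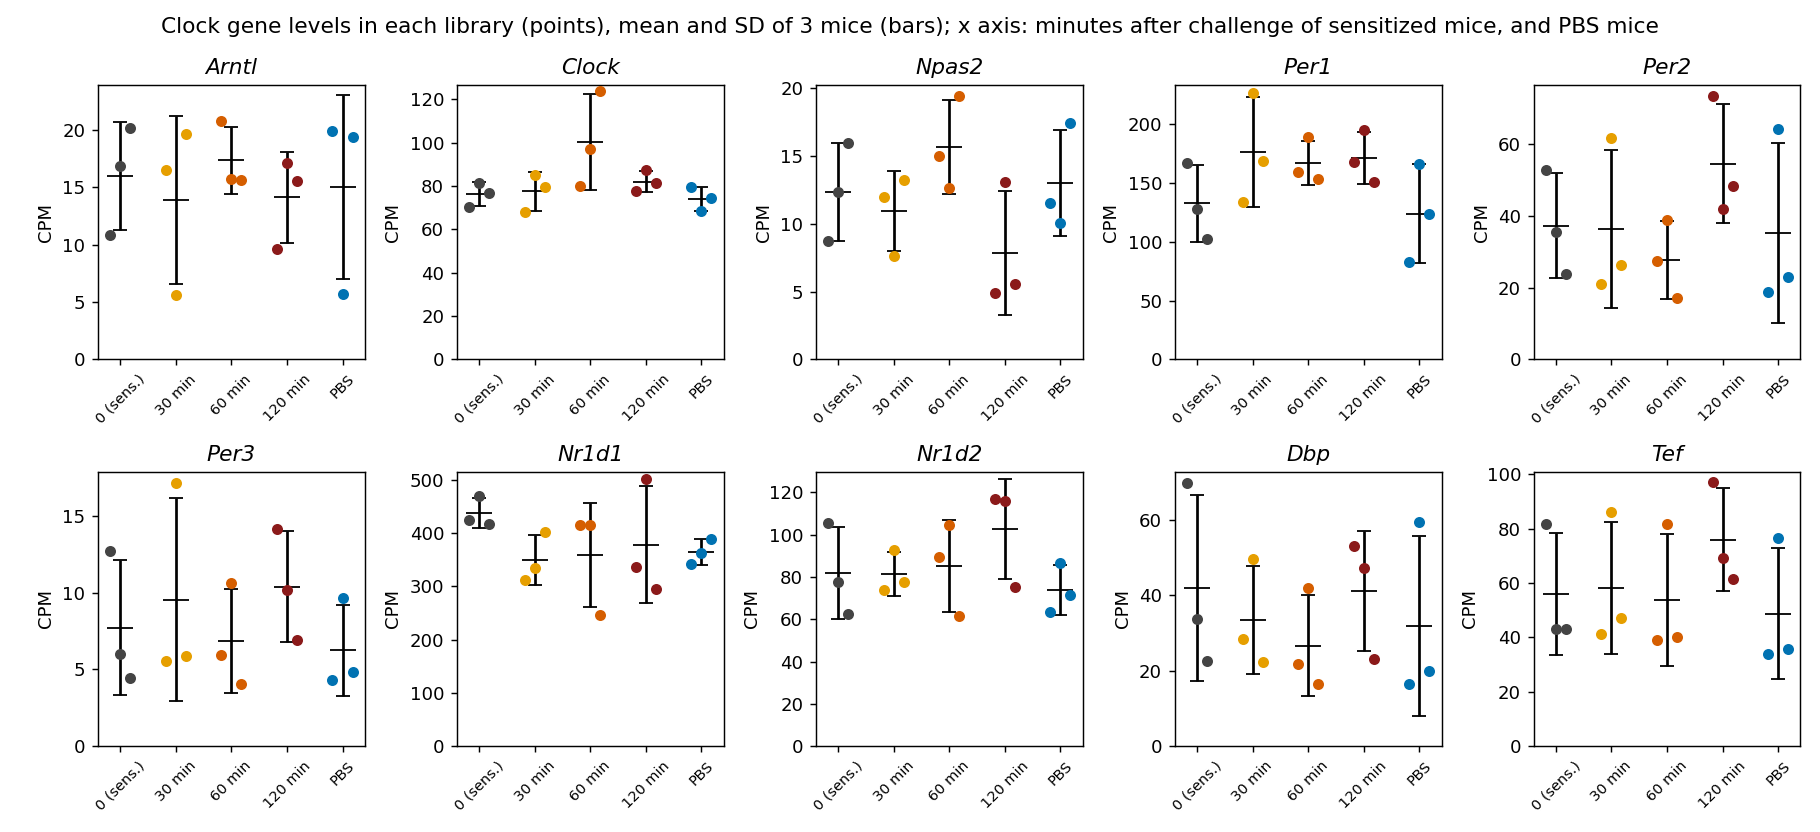
Level of each clock gene (vertical axis, CPM, from 0) in each mouse (points), with the mean (horizontal tick) and SD (bars) of the 3 mice of a group, over sensitized unchallenged mice at 0 min, mice 30, 60 and 120 min after challenge, and PBS mice. Points of a group are spread widely for Per2, Per3, Dbp and Tef, and the Nr1d1 values of sensitized mice, 418 to 469 CPM, lie above all 3 PBS mice.

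No clock gene passed the test in any comparison of groups. In edgeR's quasi-likelihood test with Benjamini-Hochberg adjustment, 0 of the 10 genes passed in any of 7 comparisons of groups or in the trend over minutes, 80 tests in all. The lowest adjusted p was 0.156, and 3 of the 80 had an unadjusted p under 0.05, the 2 of Clock at 60 min and that of Npas2 named above. Over all genes tested the share that passed was 0% for sensitized against PBS, 0% for 30 min, 0.00668% for 60 min and 1.26% for 120 min against sensitized mice. It was 0% for 60 against 30 min, 1.01% for 120 against 30 min, 1.12% for 120 against 60 min and 1.17% for the trend, and against such shares 0 of 10 genes says nothing particular to the clock. DESeq2 and limma-voom each passed 0 clock genes as well, and at an unadjusted p under 0.05 edgeR gave 0, 0, 1 and 0 clock genes for sensitization, 30, 60 and 120 min, against 212, 755, 1883 and 2650 of all genes.

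By sign alone, 9 of the 10 genes had a positive log2 difference in sensitized against PBS mice, with a median of 0.12. Of all genes 51.5% were positive there, with a median of 0.01. Many of the 10 genes were correlated across mice (below), so their signs are not separate observations. Against sensitized mice, 4 of 10 were positive at 30 min (median -0.03), 5 at 60 min (median -0.001) and 6 at 120 min (median 0.22). Of all genes 51.2%, 47.6% and 49.2% were positive at these times, with medians of 0.01, -0.02 and -0.01. These 3 comparisons share their control mice. Libraries of the 2 groups overlapped for all 10 genes at 120 min against sensitized mice, at 60 against 30 min and at 120 against 30 min, where 26.5%, 6.94% and 22.3% of all genes did not overlap. For 120 against 60 min 1 of the 10, Per2, did not overlap, beside 20% of all genes.

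**Figure D2:**
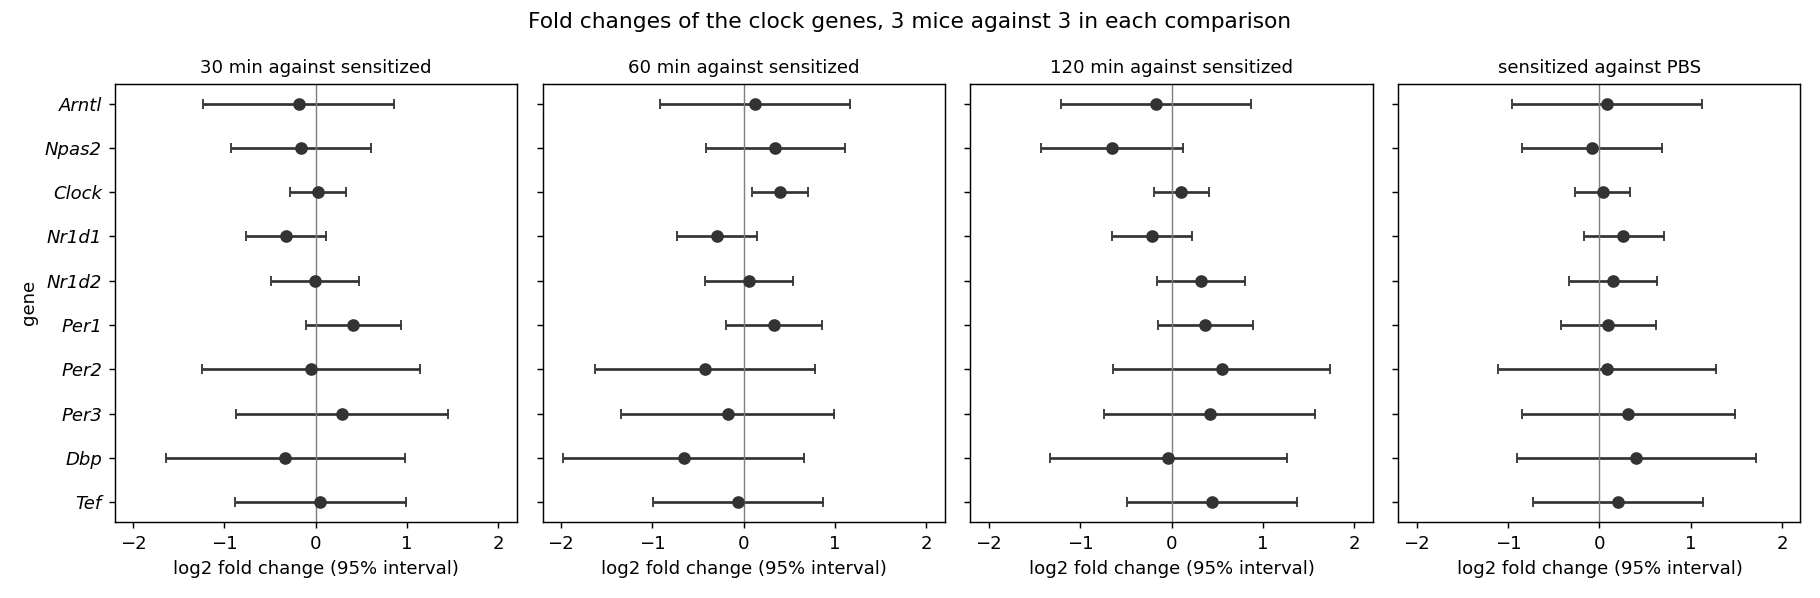
Log2 fold change of each clock gene (points, horizontal axis) with its 95% interval (bars), from left to right at 30, 60 and 120 min after challenge against sensitized mice and in sensitized against PBS mice, with 3 mice a group. All intervals but that of Clock at 60 min, 0.10 to 0.70, include 0, and those of Dbp, Per2, Per3 and Arntl are the widest.

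Levels varied between the mice of a group. Each mouse gave 1 library, so the mouse and its isolate or library cannot be told apart. The SD of log2 CPM within groups was 0.76 for Dbp, 0.71 for Per3, 0.70 for Per2 and Arntl, 0.55 for Tef and 0.49 for Npas2, where the median of 11470 genes with a mean of at least 2 CPM was 0.23. Dbp thus varied more within groups than 95.9% of these genes, Per3 more than 95.1%, and Per2 and Arntl each more than 94.9%. Among genes of a like level, within 2-fold, the shares were 99.1% for Dbp, 92.9% for Per3, 99.0% for Per2, 96.5% for Arntl, 98.3% for Tef and 91.7% for Npas2. Per1 (SD 0.34), Nr1d2 (0.32) and Nr1d1 (0.28) varied more than 91.7%, 90.5% and 79.6% of genes of a like level. Clock (SD 0.18) was the only one of the 10 below the median of all these genes, and it varied more than 50.8% of genes of a like level. The part of the variation that lay between groups was 8.7% for Arntl and 14.5% for Dbp, against 38.1% for the median gene, and 7 of the 10 clock genes were below that median. Above it were Clock (51.4%), Npas2 (45.6%) and Per1 (39.0%).

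These differences between mice ran in parallel across genes. In each of the 5 groups a single mouse had the highest Per2, Per3, Nr1d2, Dbp and Tef of its group, namely sensitized replicate 1, 30 min replicate 2, 60 min replicate 2, 120 min replicate 1 and PBS replicate 2. These 5 genes were grouped after their values were seen. That mouse also had the lowest Npas2 of its group in 5 of 5 groups and the lowest Arntl in 4, and at 60 min its Arntl level was 15.68 CPM beside a lowest of 15.65 CPM. It had the highest Per1 in 4 groups and the highest Nr1d1 in 0.

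**Figure D3:**
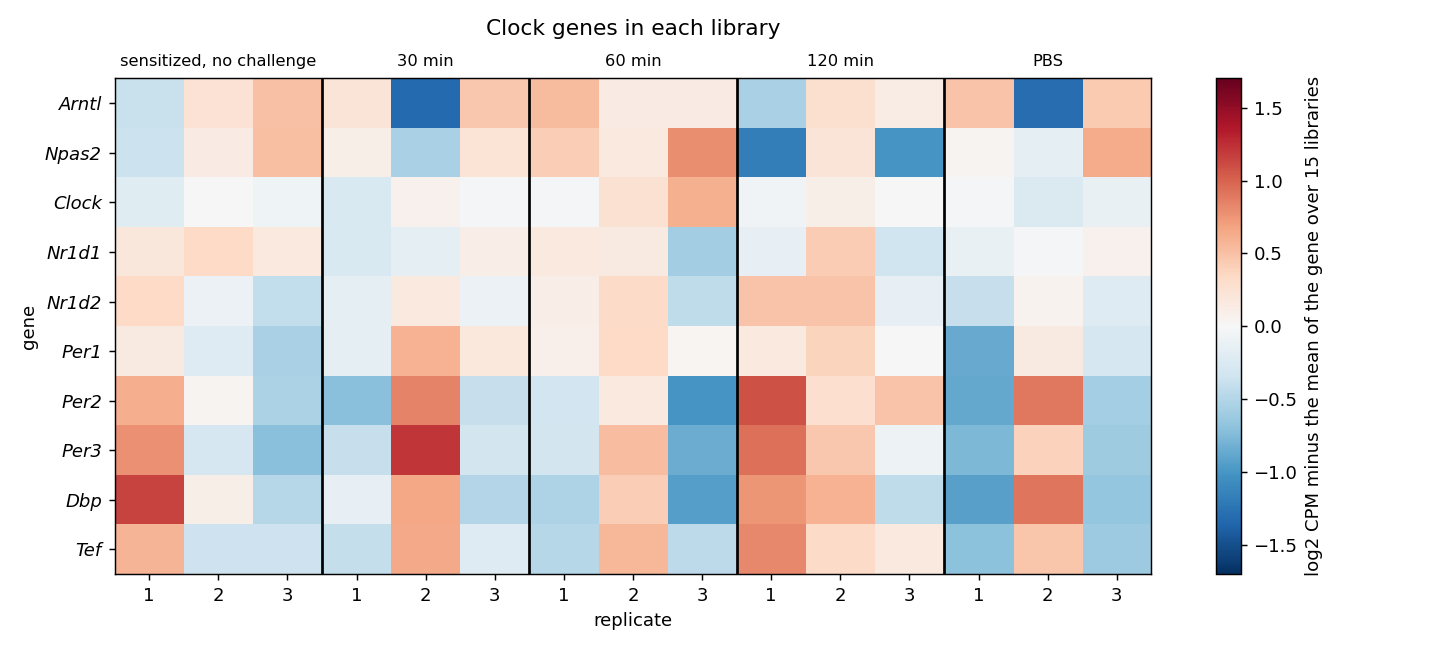
Level of each clock gene (rows) in each of the 15 libraries (columns, by group and replicate), as log2 CPM minus the mean of that gene over all libraries, in red above the mean and in blue below it. Some red columns for Nr1d2, Per2, Per3, Dbp and Tef, such as 30 min replicate 2 and 120 min replicate 1, are blue for Arntl and Npas2. The red columns of 60 min replicate 2 and 120 min replicate 2 are not. Each group but that at 120 min holds red and blue columns for these genes. At 120 min replicates 1 and 2 are red and replicate 3 is mixed.

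Over the 15 libraries the levels were compared pair by pair. Of 45 pairs, 22 were correlated at an adjusted p under 0.05 (Pearson's r of log2 CPM, permutation test with 100000 resamples, two-sided), 15 positively and 7 negatively, and Spearman's rho passed for 24. All 10 pairs among Per2, Per3, Nr1d2, Dbp and Tef passed, with r of 0.77 to 0.95. Per3 and Tef were the closest pair (r = 0.95, rho = 0.91, permutation p = 1e-05, the smallest these permutations can give, adjusted p = 0.00027). Per1 joined this set, with r of 0.64 with Per2, 0.77 with Per3, 0.73 with Nr1d2, 0.63 with Dbp and 0.74 with Tef, all passing, though its pairs with Per2 and Dbp no longer passed without the 2 libraries farthest from the median Per1 level (r = 0.54 and 0.53, permutation adjusted p = 0.11 and 0.12).

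Of the activators, Arntl and Npas2 ran opposite to part of this set. Arntl was correlated with Per2 at r = -0.77 (rho = -0.68, permutation p = 0.00026, adjusted p = 0.0013), with Per3 at -0.75, with Tef at -0.74 and with Dbp at -0.73 (rho = -0.69, adjusted p = 0.0025). Without 30 min replicate 2 and PBS replicate 2, the libraries of lowest Arntl, r was -0.75 with Per2 and -0.75 with Dbp, so the relation did not rest on them. Its pairs with Per1 (r = -0.55, permutation adjusted p = 0.061) and Nr1d2 (r = -0.42, adjusted p = 0.19) did not pass. Npas2 was correlated with Per2 at -0.79, with Tef at -0.70 and with Per3 at -0.67, all passing, and its pairs with Dbp (r = -0.53), Nr1d2 (-0.49) and Per1 (-0.31) did not pass. Arntl and Npas2 were less tightly linked, with r = 0.56 (permutation adjusted p = 0.055) and rho = 0.68 (adjusted p = 0.017).

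Clock and Nr1d1 stood outside this pattern. None of the 9 pairs with Clock passed, with r of -0.33 to 0.31, and none of the 9 with Nr1d1, with r of -0.33 to 0.44. For Nr1d1 and its relative Nr1d2, r was 0.44 with a permutation adjusted p of 0.18. For the 22 pairs that passed, the share of genes at least as close to the first gene as the second was ran from 0.02% to 3.15%. It counted genes whose r had the same sign and was at least as far from 0. Genes with an r of the opposite sign were not counted. This share was 0.03% for Arntl with Per2 and for Dbp with Tef, 2.36% for Npas2 with Tef, 2.78% for Per1 with Dbp and 3.15% for Npas2 with Per3.

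**Figure D4:**
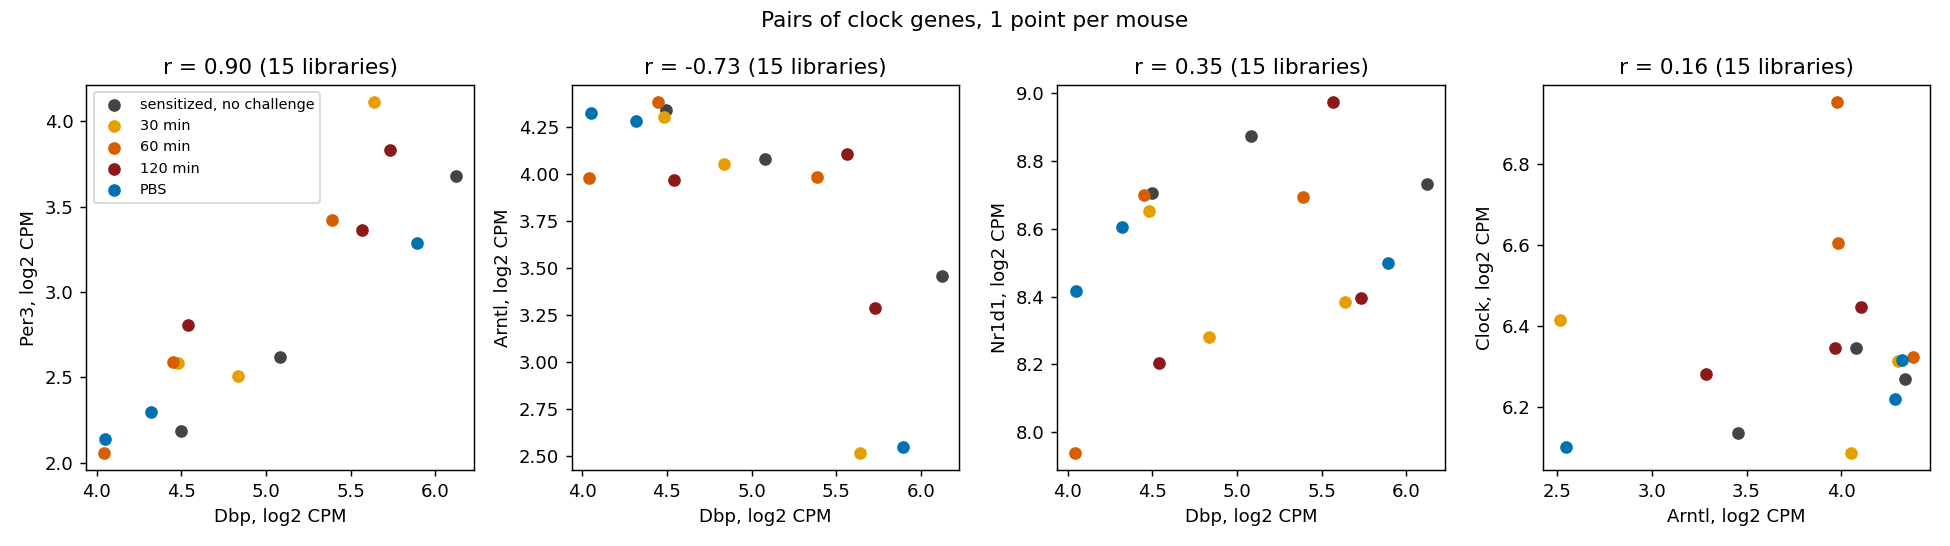
Log2 CPM of pairs of clock genes in the 15 mice, 1 point per mouse, coloured by group, for Per3 against Dbp, Arntl against Dbp, Nr1d1 against Dbp and Clock against Arntl. Per3 rises with Dbp (r = 0.90), Arntl falls with it (r = -0.73), and the panels of Nr1d1 (r = 0.35) and Clock (r = 0.16) show no such order.

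The same structure was present within groups, with the group means removed. Of the 45 pairs 22 passed for the deviations from the group means (exact permutation within groups, 7776 arrangements, adjusted over the 45 pairs), 16 positive and 6 negative. Arntl with Per2 had r = -0.88 and Arntl with Dbp -0.80 (exact permutation adjusted p = 0.015 and 0.017), and Arntl with Npas2 then passed as well (r = 0.65, adjusted p = 0.031). Npas2 with Per3 no longer did (r = -0.62, adjusted p = 0.053).

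**Figure D5:**
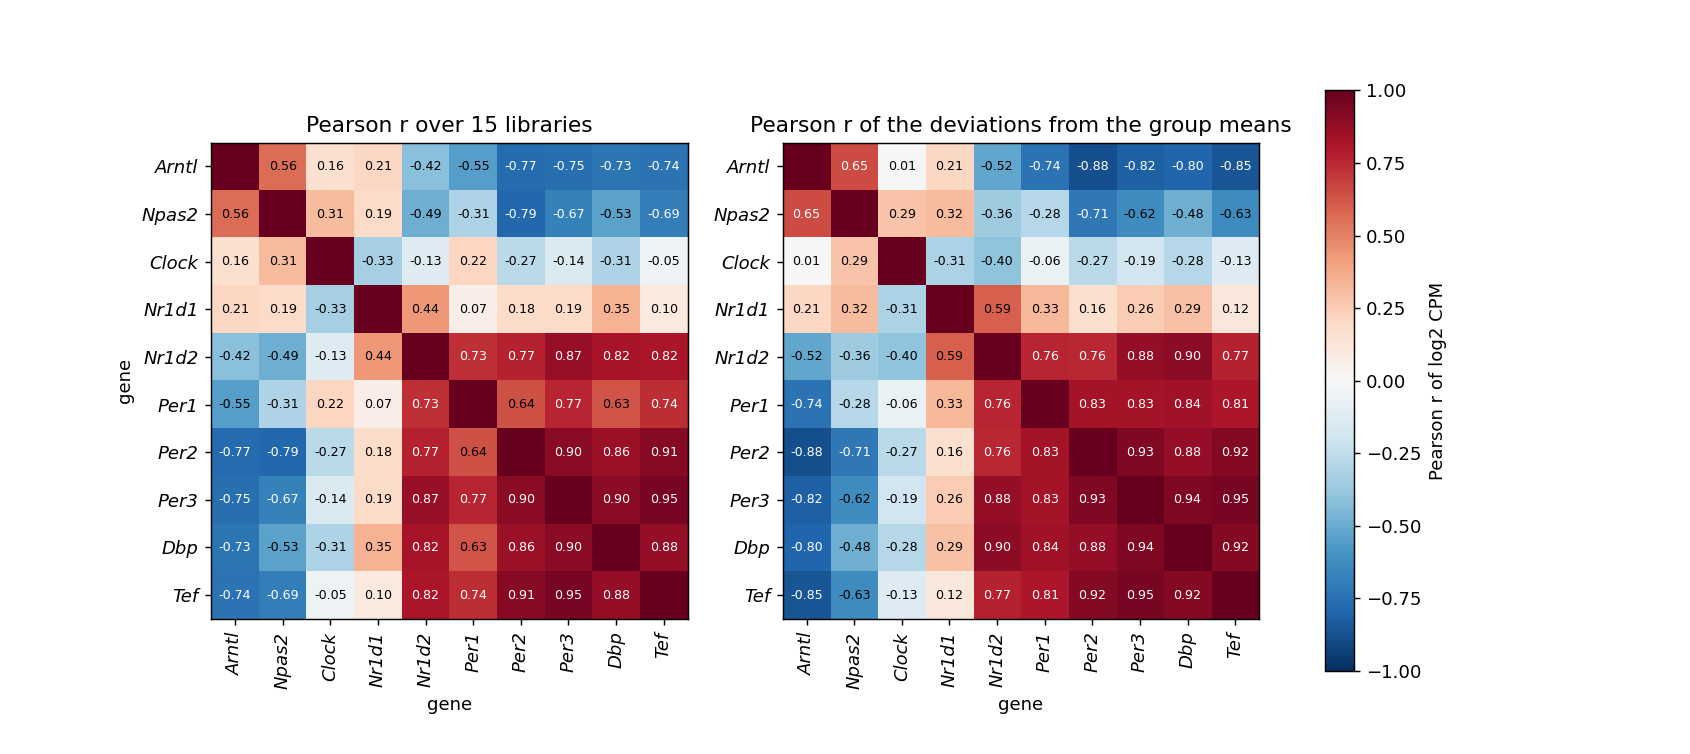
Pearson's r of log2 CPM for each pair of clock genes, over the 15 libraries (left) and for the deviations from the group means (right), with red for positive and blue for negative r. Nr1d2, Per1, Per2, Per3, Dbp and Tef form a red block with r of at least 0.63 on the left, Arntl and Npas2 are blue against most of it, and the rows of Clock and Nr1d1 are pale.

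Properties of the libraries were set against the 10 genes in 100 relations (mitochondrial share, total counts and the mean level of 8 gene lists), and 0 passed after adjustment by Pearson's r or by Spearman's rho. The lowest permutation p belonged to a list of 10 glucocorticoid-induced genes, with r = 0.74 for Per2, 0.73 for Nr1d2, 0.71 for Tef and -0.72 for Npas2 (permutation p = 0.0014, 0.0018, 0.0023 and 0.0027, adjusted p = 0.063 for each). A list of immediate early genes had r = 0.69 with Nr1d1 (permutation p = 0.0031, adjusted p = 0.063) and -0.80 with Clock (permutation p = 0.0096, adjusted p = 0.11). Without the 2 libraries farthest from the median of the immediate early list these r were 0.43 and -0.17. Without the 2 libraries farthest from the median of the glucocorticoid-induced list, r was 0.66 for Per2, 0.92 for Nr1d2, 0.70 for Tef and -0.33 for Npas2. The mean log2 CPM of this list was 6.93 to 7.30 at 120 min, against 5.78 to 6.41 in sensitized mice. For 120 min against sensitized mice 8 of its 10 genes had a positive difference, with a median of 0.62, and 0 passed. At an unadjusted p under 0.05 in edgeR there were 7 of the 10, against 17.7% of all genes. In the trend over minutes 2 of the 10 passed with a positive slope, against 1.17% of all genes in either direction. These were Fkbp5 and Zbtb16 (adjusted p = 0.041 and 0.0369 in edgeR). For 120 min against sensitized mice 17 of 20 leukocyte markers had a negative difference, with a median of -1.36, and 0 passed. The part of either in the levels of clock genes at 120 min was not tested.

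Of 21 other clock genes listed, 19 were tested, and 0 passed in any of the 8 tests, which had the shares of all genes given above. For 120 min against sensitized mice 14 of the 19 had a positive and 5 a negative difference, with a median of 0.17. The smallest unadjusted p against sensitized mice belonged to Fbxw11, a ubiquitin ligase subunit that recognises PER proteins, and Usp2, a clock-controlled deubiquitinase. At 120 min Fbxw11 differed by 0.37 ± 0.13 (adjusted p = 0.163 in edgeR) and Usp2 by 0.90 ± 0.33 on the log2 scale (adjusted p = 0.184). Next came Csnk1d, a kinase of PER proteins, at 60 min (0.23 ± 0.11, adjusted p = 0.404) and Cry2, a partner of the PER repressors, at 120 min (0.80 ± 0.39, adjusted p = 0.308). Across the 15 mice, 6 of the 19 were correlated with Dbp at an adjusted p under 0.05 (permutation test, adjusted over the 19), all positively, and the same number passed by Spearman's rho. They were Cry2 (r = 0.81, rho = 0.84, adjusted p = 0.0059), Usp2 (r = 0.77), the repressor Ciart (r = 0.75), the repressor Bhlhe40 (r = 0.74), the D-box factor Hlf (r = 0.73) and Cry1 (r = 0.66, adjusted p = 0.021). Without the 2 libraries farthest from the median Dbp level r was 0.86 for Cry2 and 0.65 for Cry1, and within groups it was 0.92 and 0.65.

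The genes whose level over the 15 libraries was most like that of 4 members were taken from 10879 genes, as a description. For Dbp they were Akr1c14 (r = 0.81), Slc13a2os, Cry2, Homer2 and Tceanc2 (r = 0.80). For Arntl they were Pif1 (r = 0.84), Tmem252, Zbtb8os, Cyth3 and Rhbdd3 (r = 0.78). For Per1 they were Kcnk5 (r = 0.88), Pard3b, Add3, Nhs and Arl4d (r = 0.86), and for Nr1d1 Ocln (r = 0.87), Rtn4r, Gas6, Etfdh and Efnb1 (r = 0.85). Cry2 was the 1 gene of the list of other clock genes among these 20.

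At the level of transcripts, a single form made up nearly all of Per2 (Per2-201, a median of 100% of the gene's estimated count over the 15 libraries), Nr1d1 (Nr1d1-201, 99.2%), Npas2 (Npas2-201, 94.4%) and Nr1d2 (Nr1d2-201, 90.7%). Clock was divided among Clock-205 (45%), Clock-201 (39.9%) and Clock-204 (11.7%), and Tef between Tef-201 (61.4%) and Tef-202 (30.3%). Dbp-201 held 68.8% of Dbp, Dbp-204 18.2% and the retained-intron form Dbp-205 10.5%. Per1-201 held a median of 78.3% of Per1, with a range of 32.7% to 85.0%. Per1-206 took 7.5%, 16.0% and 0% in sensitized mice, 0% in all 3 mice at 30 min, 0%, 46.1% and 0% at 60 min, 17.2%, 50% and 20.6% at 120 min and 0% in all 3 PBS mice, so mice with and without it occurred in the sensitized and the 60 min groups. These divisions are Salmon's estimates among forms that share most of their reads, and they were not tested. Dbp overlaps with Sphk2 and Nr1d1 with Thra on the opposite strand, and Per3 overlaps with Camta1 and Clock with the pseudogene Ube2n-ps1 on the same strand. The strand setting of the quantification is not given in the labels or files, so reads from the overlapping stretches cannot be told apart with certainty.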

How the data were processed

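Polyadenylated RNA of 15 mice had been sequenced with paired reads of 151 bp. Per the submitters' processing notes, the authors used cutadapt 1.18, Salmon 1.2.1 and mm10. The deposited tables give, per the file headers, estimated counts and TPM for 139058 transcripts. With GENCODE M21, 137943 transcripts were summed to 52844 genes (versions ignored, 1115 unmatched), and sums were rounded. TPM, which the authors computed, served to order genes by level and was set beside CPM for Nr1d1 and Clock, with no test. edgeR 4.0.16 (TMM, filterByExpr, robust quasi-likelihood fit, R 4.3.3) took all 15 libraries with a mean per group, and the trend the 12 sensitized libraries. Genes with a p under 0.05 after Benjamini-Hochberg adjustment, made over every gene tested, passed. CPM and log2 CPM used the TMM factors, and log2 CPM a prior count of 2. DESeq2 1.42.0 and limma 3.58.1 (voom) were alternatives. The fit was tested on simulated data, for 120 min against sensitized mice. It recovered 24 of 50 genes raised 2-fold and 28 of 50 lowered 2-fold. At 4-fold it recovered 43 of 50 raised and 37 of 50 lowered, with 9 false calls among the unchanged genes. Many 2-fold changes were thus missed. The changed genes were drawn from all genes tested. Of the 10 clock genes, 9 varied more within groups than the median gene with a mean of at least 2 CPM. These counts therefore do not give the recovery for the clock genes. All 10 members were named whatever their values. Of the other clock genes, those past the threshold or else the 4 of smallest p against sensitized mice were named. Named too were the 5 genes of highest r for Arntl, Nr1d1, Dbp and Per1 (mean of at least 2 CPM, no members, no numbered gene models). Lists of glucocorticoid-induced and immediate early genes and of markers of epithelial, leukocyte, stromal, proliferating crypt, villus and erythroid cells were set against the members. Members and lists were chosen with earlier results of these data known. P-values of edgeR judge differences between groups against the spread between these mice. Those of correlations come from permuting the libraries.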

Additional observations from a re-analysis of the deposited data

How the results depend on the processing

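No clock gene passed under the other normalization (DESeq2 size factors), no filter on low counts, DESeq2, limma-voom, an offset for transcript length, mitochondrial genes left out, transcripts matched with their version only, PBS mice as control, or a trend over the 9 challenged libraries. When 1 library was left out in turn, the clock genes that passed numbered 0 to 1 at 60 min against sensitized mice and 0 to 1 at 120 against 60 min, and 0 elsewhere. Without 60 min replicate 1, Clock passed in both of these (0.56, adjusted p = 0.0454, and -0.46, adjusted p = 0.0499, in edgeR). Without 120 min replicate 2, Npas2 passed at 120 against 60 min. The cause was not tested, but each such fit has fewer samples. Of 1800 single-gene values under alternatives, 111 had the opposite sign, none of them passing. The counts of all genes moved far more. At 120 min against sensitized mice 188 genes passed, 846 in DESeq2, 34 with the length offset and 7 to 344 with 1 library left out, 7 of them without sensitized replicate 3. At 120 against 30 min 151 passed, 838 in DESeq2, 32 with the offset and 4 to 241 with a library left out, 4 without 120 min replicate 1. At 120 against 60 min 168 passed, 951 in DESeq2, 46 with the offset, 279 with no filter and 0 to 1151, 0 without 120 min replicate 1 and 1151 without 60 min replicate 1. At 60 min 1 gene passed, 189 in DESeq2, 49 with no filter and 0 to 385, the most without 60 min replicate 1. DESeq2 passed 6, 6 and 5 genes where edgeR passed 0 (sensitization, 30 min, and 60 against 30 min). The trend passed 172 genes, 896 in DESeq2, 40 with the offset, 10 over the challenged libraries and 8 to 490, 8 without 120 min replicate 1. Of the 22 correlated pairs, 21 also passed within groups, where Npas2 with Per3 was lost and Arntl with Npas2 gained. Without the 2 farthest libraries 20 of them passed, Per1 with Per2 and Per1 with Dbp were lost, and Arntl with Npas2 (r = 0.70) and Npas2 with Dbp (r = -0.76) were gained. No paired analysis was possible because each mouse carries its own number in the labels. At 120 min against sensitized mice the 95% intervals of Dbp, Per2 and Per3 were each wider than 2 log2 units.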
